A study of Mus musculus with 9 samples.

Results

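The 9 genes described here act in cholesterol efflux and lipoprotein handling, and were measured in macrophages sorted from mouse skin wounds among 18303 genes with counts. They were listed by name: the nuclear receptor gene Nr1h3, which encodes LXR alpha (liver X receptor alpha), and its textbook targets Abca1, Abcg1, Apoe, Apoc1, Apoc2, Lpl, Pltp and Mylip, which include the apolipoprotein genes of the Apoe cluster. All 9 were listed in the counts and all 9 passed the filter on low counts. Apoc1 and no other member passed it only through the day 4 libraries, where it was higher.

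The wounds were made in the skin of C57BL/6J wild-type mice, and cells carrying CD45, CD11b and F4/80 on their surface were sorted 4 days (4 libraries) or 14 days (5 libraries) after injury and taken for RNA sequencing without treatment. The series asks how wound macrophages of the early phase differ from those of the late phase. Both groups share the genetic background, the gate and the tissue, and neither holds unwounded skin or a later time. The labels do not give the age or sex of the mice or say whether libraries came from separate or pooled animals, and the p-values speak only of variation among these libraries, part or all of which could be technical.

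Liver X receptors are nuclear receptors that bind oxysterols, the oxidised derivatives of cholesterol. Paired with a retinoid X receptor on DNA repeats of the letters AGGTCA set 4 bases apart, they raise the transcription of genes that move cholesterol out of the cell: the transporters ABCA1 and ABCG1, the acceptor protein apolipoprotein E, and enzymes that remodel lipoproteins. They also raise MYLIP, a ubiquitin ligase that marks lipoprotein receptors for breakdown. Wound macrophages take up cholesterol with dead cells and debris, which makes this the pathway that handles their sterol load. Apoe and Apoc1 are known as targets in macrophages through a shared distal enhancer that also acts on Apoc4 and Apoc2.

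Promoter windows of 300 bases, from 250 before to 50 after an annotated start, were read from RefSeq (GRCm38.p6) for 6 of the 9 members, giving 9 windows. Each was searched on both strands for the receptor's element, 2 copies of AGGTCA with 4 bases between them, scored as mismatches over 12 positions. The best match was in Abca1, with 3 mismatches, on the strand opposite to the gene, and its first base lay at -67 when the start is counted as 0. A match this close was held by 21.9% of 32851 windows of all genes, so the number of mismatches alone does not set it apart. The 3 Apoe windows, both Nr1h3 windows and the Apoc2 window held no match closer than 4 mismatches, which 76.9% of windows reach. The best matches of Mylip and Pltp had 5 mismatches. Exact single copies of AGGTCA were found in Apoc2 alone among the 6 members, at -115 and 42, and 1.79% of all windows hold 2 or more copies. Of 11 other targets of the receptor with a window, 3 held a match of at most 3 mismatches. These are counts of letters and not evidence of binding, and this window leaves out distal enhancers.

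The windows of Abca1, the exporter with the closest match, of Apoc2, the member with the largest fold change, and of Apoe, its neighbour and the most abundant member, are shown from 5′ to 3′ along the gene, all on the minus strand. Capitals mark the best match to both copies of the element in Abca1 (chr4:53159846-53160145) and Apoe (chr7:19699139-19699438), and in Apoc2 (chr7:19677892-19678191) the exact single copies of AGGTCA or of its reverse complement.
Abca1: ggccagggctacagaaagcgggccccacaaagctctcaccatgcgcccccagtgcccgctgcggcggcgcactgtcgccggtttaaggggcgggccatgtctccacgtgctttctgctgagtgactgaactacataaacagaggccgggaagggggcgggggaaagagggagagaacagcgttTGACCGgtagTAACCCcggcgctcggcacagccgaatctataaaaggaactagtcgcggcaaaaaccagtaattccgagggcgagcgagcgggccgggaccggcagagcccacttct
Apoe: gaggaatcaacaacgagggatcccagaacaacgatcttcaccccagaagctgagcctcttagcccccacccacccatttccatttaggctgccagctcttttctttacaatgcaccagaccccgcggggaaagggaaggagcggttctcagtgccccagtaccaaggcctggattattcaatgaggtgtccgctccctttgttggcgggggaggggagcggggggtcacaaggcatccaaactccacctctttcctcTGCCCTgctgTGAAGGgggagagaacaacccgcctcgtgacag
Apoc2: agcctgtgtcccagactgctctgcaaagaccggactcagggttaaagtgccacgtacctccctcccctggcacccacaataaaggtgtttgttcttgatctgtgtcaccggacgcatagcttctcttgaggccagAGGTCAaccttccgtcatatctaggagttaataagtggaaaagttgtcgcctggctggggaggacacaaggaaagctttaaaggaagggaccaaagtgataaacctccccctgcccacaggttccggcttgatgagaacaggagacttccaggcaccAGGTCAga

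Total counts per library ranged from 17982630 to 57809914, and 2 of the 4 day 4 libraries (replicates 3 and 4) and 1 of the 5 day 14 libraries (replicate 1) were above 40000000. A single library is incomplete: day 14 replicate 5 has almost no counts from partway through Aplp2, on chromosome 9, onward in the order of the genome, so those 1504 genes were tested in the other 8 libraries. None of the 9 members lies among them (0 of 9), and every value of a member below rests on all 9 libraries. Macrophage markers were high at both times, with a summed level of 9 genes between 17922 and 21339 CPM (counts per 1000000 counts of a library, after TMM scaling) at day 4 and between 18953 and 19980.0 at day 14. Of that sum Lyz2 held 10083 CPM at day 4 and 10583 at day 14. By edgeR, 2 of these 9 markers were higher at day 14, Ptprc (1.29-fold) and Emr1 (1.28-fold), and 4 were lower, Fcgr1 (2.17-fold), Cd68 (1.4-fold), Itgam (1.38-fold) and Mertk (1.30-fold). Markers of other cells moved between the days, where 31.2% of all genes tested were called. Fibroblast markers (7 of 11 lower, 0 higher) summed to 9630-19044 CPM at day 4 and 5122-8570 at day 14 over 10 genes. Collagens held most of that sum: Col3a1 (5990 CPM at day 4 and 3014 at day 14), Col1a1 (3105 and 1124) and Col1a2 (2912 and 1356). Dcn, Lum, Postn and Mfap5 did not pass (edgeR adjusted p = 0.153, 0.886, 0.738 and 0.293). The summed levels of fibroblast markers did not overlap between the days. The covariate in fits below is instead the mean log2 CPM of the same 10 genes, whose overlap between the days is not given. Since most of these markers were lower at day 14, such fits cannot fully separate their level from the day. Dendritic cell markers (8 of 9 higher, 0 lower) summed to 220.0-249.8 and 431-530.0 CPM over 8 genes. Keratinocyte (5 of 6 higher), eosinophil (3 of 3 higher) and endothelial markers (2 of 6 higher) stayed under 70 CPM in sum. The 5 keratinocyte markers called, and the endothelial marker Emcn, passed the filter on low counts only through day 14, where they were higher. Neutrophil markers (0 of 6 called by edgeR, 1 with an unadjusted p under 0.05) ranged from 610.2 to 1678 CPM in sum at day 4 and from 239.9 to 1699 at day 14. Of the T cell markers, Cd3e held 0 to 5 counts per library, and Cd4, the 1 tested, was 1.66-fold higher at day 14 (32.5 and 53.9 CPM, edgeR adjusted p = 0.000268). Of the adipocyte markers 2 were tested, with 0 higher and 1 lower. Adipoq held 0 to 20 counts per library, Plin1 0 to 10, Cidec 0 to 9, Lep 0 to 2 and Cfd 3 to 32. Cfd was 3.56-fold lower at day 14 (edgeR adjusted p = 0.0119) and passed the filter through day 4. Fabp4, which macrophages also express, held 20.4-31.8 CPM and did not pass the test (edgeR adjusted p = 0.146). In sorted bulk samples, fewer cells of a type and less RNA per cell cannot be told apart.

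Over all genes, 4175 of 13364 tested passed the edgeR quasi-likelihood test at an adjusted p under 0.05 (31.2%), 2019 of them higher at day 14 (15.1%) and 2156 lower (16.1%). Of the 9 members, 2 were higher at day 14 (Lpl and Mylip), 3 were lower (Nr1h3, Apoc1 and Apoc2) and 4 did not pass (Abca1, Abcg1, Apoe and Pltp). The libraries of both days did not overlap for 4 members (Nr1h3, Apoc2, Lpl and Mylip), against 25.9% of all genes tested. The median log2 fold change of the 9 was -0.13, beside -0.01 for all genes tested. The receptor gene and its targets therefore did not move as 1 block between the days: the same set held a gene that fell by 3.17 on the log2 scale and one that rose by 1.25.

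**Figure D1:**
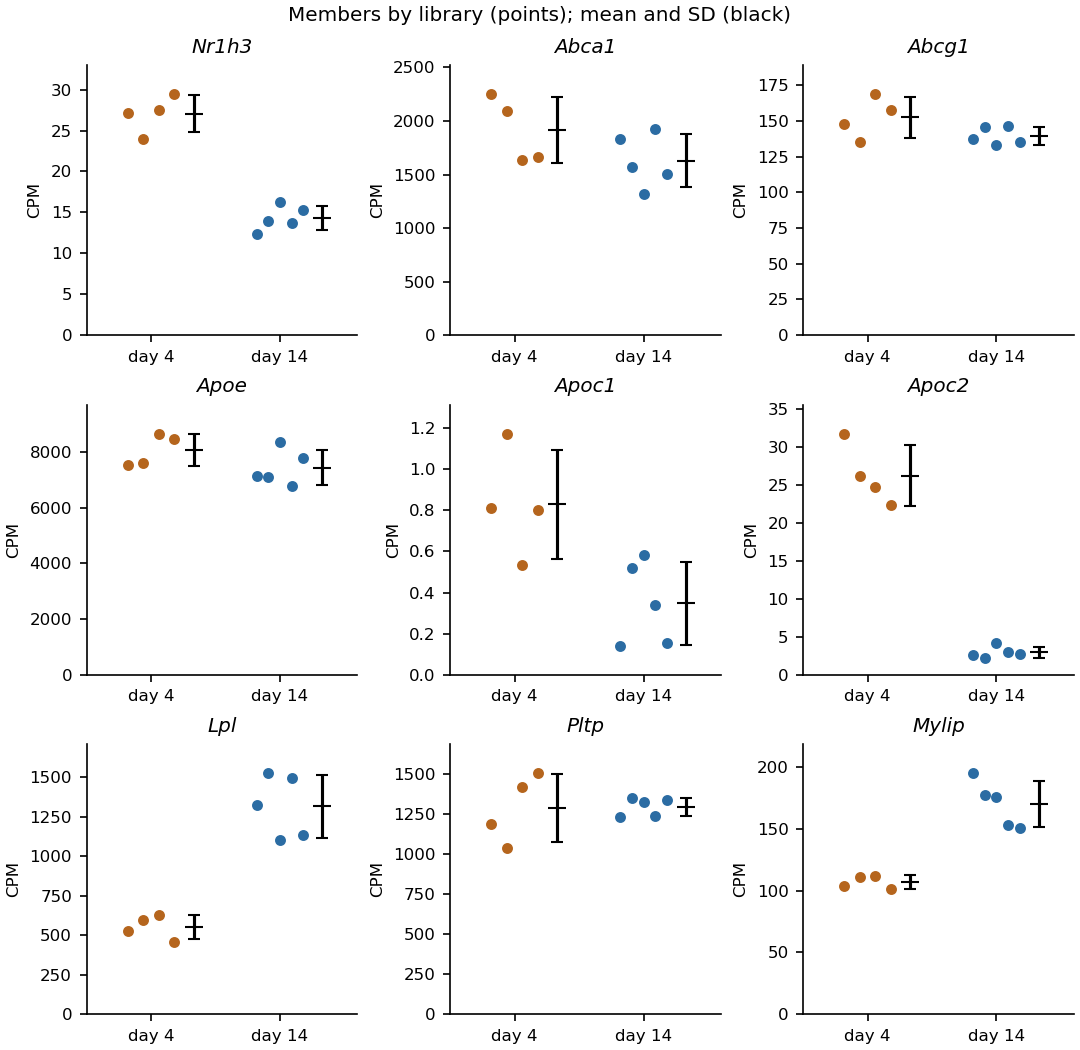
Level of each of the 9 members in every library (points; orange, the 4 day 4 libraries; blue, the 5 day 14 libraries; y axis, CPM, starting at 0), with the mean and SD beside them in black. Nr1h3 and Apoc2 sit lower and Lpl and Mylip higher in all 5 day 14 libraries, while the points of the other 5 genes overlap.

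Levels were compared between members per kilobase of transcript. Apoe ranked 3rd of 16856 genes at day 4 and 5th at day 14, at 5727 and 5279.6 CPM per kb. Pltp ranked 69th at both times, at 578 and 582 CPM per kb. Abca1 followed with 186 and 159, and Lpl stood below it at day 4 (134 CPM per kb) and above it at day 14 (319). Apoc2 and Mylip had nearly the same level at day 4, 36.1 and 34.9 CPM per kb, and differed at day 14, with 4.02 for Apoc2 and 55.5 for Mylip. In rank among all genes Apoc2 went from 1935th to 7868th. Abcg1 had 26.2 and 23.9 CPM per kb and Nr1h3 13.8 and 7.32, so that Apoc2 stood above both at day 4 and below both at day 14. Apoc1 was the lowest member at both times (1.56 and 0.652 CPM per kb).

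Nr1h3 (chr2:91184061-91202829) encodes LXR alpha, the receptor form that is abundant in macrophages and liver. Its day 4 libraries held 27.2, 24.0, 27.5 and 29.4 CPM in the order of the replicates, and its day 14 libraries held 12.4, 14.0, 16.3, 13.7 and 15.3 CPM. The highest day 14 library stayed below the lowest day 4 library. The means were 27.0 ± 2.25 (SD, n = 4) at day 4 and 14.3 ± 1.5 (SD, n = 5) at day 14, a 1.89-fold lower level (log2 fold change -0.92 ± 0.10, SE, 95% interval -1.14 to -0.70, edgeR adjusted p = 4.69e-05). It passed in all 22 alternatives, with log2 fold changes from -0.97 to -0.78. Nr1h2, which encodes the sister receptor LXR beta, measured 52.7 ± 10.4 CPM at day 4 and 41.2 ± 9.21 CPM at day 14, with a difference that did not pass (log2 fold change -0.36 ± 0.16, edgeR adjusted p = 0.117).

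None of the receptor's partners and coregulators passed the edgeR test. Of 9 listed genes 8 were tested, with 0 called higher and 0 lower, beside 31.2% called of all genes tested. Their median log2 fold change was -0.19, and 3 had an unadjusted p under 0.05, all lower. DESeq2 and limma-voom each called 1 lower. Without day 14 replicate 3 the edgeR count was 3, and without day 4 replicate 1, day 4 replicate 2 or day 14 replicate 5 it was 1. Rxra, the retinoid X receptor of myeloid cells, held 125 ± 19.4 CPM at day 4 and 105 ± 5.69 CPM at day 14 (edgeR adjusted p = 0.0770), and Rxrb held 37.8 ± 3.33 CPM at day 4 and 31.1 ± 3.67 CPM at day 14 (edgeR adjusted p = 0.0501). Ncor1, a corepressor that keeps target genes silent without ligand, was the most abundant of the list, with 231 ± 7.38 CPM at day 4 and 217 ± 9.05 CPM at day 14 (edgeR adjusted p = 0.341).

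Neither exporter passed the test. ABCA1 loads cholesterol onto lipid-poor apolipoproteins and ABCG1 onto formed HDL particles. Abca1 (chr4:53030789-53159988) held 2250.0, 2095, 1638 and 1663 CPM at day 4 and 1829.5, 1569, 1315, 1927 and 1507 CPM at day 14. The groups overlap: day 14 replicates 1 and 4 lie above day 4 replicates 3 and 4. Abca1 averaged 1911 ± 308 (SD, n = 4) at day 4 and 1629.6 ± 248 (SD, n = 5) at day 14, and the difference did not pass the test (log2 fold change -0.23 ± 0.13, SE, 95% interval -0.52 to 0.06, edgeR adjusted p = 0.210). The day 4 libraries fell into pairs by depth, with replicates 1 and 2, which have the lower totals, above replicates 3 and 4. In the 6 libraries under 40000000 counts the log2 fold change was -0.45 (edgeR adjusted p = 0.099), and without day 4 replicate 1 it was -0.14. With log10 library size as a covariate it was -0.27 (edgeR adjusted p = 0.212).

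Abcg1 (chr17:31057694-31117984) held 148, 135, 169 and 158 CPM at day 4 and 137, 146, 133, 147 and 135 CPM at day 14. The highest 3 values were day 4 libraries, and day 4 replicate 2 lay among the day 14 libraries. Its means were 153 ± 14.3 (SD, n = 4) at day 4 and 139.5 ± 6.14 (SD, n = 5) at day 14 (log2 fold change -0.13 ± 0.08, SE, 95% interval -0.30 to 0.05, edgeR adjusted p = 0.239), and in the 6 libraries under 40000000 counts the change was -0.004 (edgeR adjusted p = 0.985). The interval allows a fall of up to 0.30 and a rise of up to 0.05 on the log2 scale. Within a library, the log2 ratio of Abca1 to Abcg1 counts went from 3.64 ± 0.35 (SD, n = 4) to 3.53 ± 0.19 (SD, n = 5), a difference that did not pass (exact permutation test, two-sided, p = 0.563 over all regroupings of the 9 libraries). The ratio of Abca1 to Nr1h3 rose by 0.69 on the log2 scale, with an exact permutation p of 0.0397 that did not pass after adjustment over 6 ratios (0.0595). Its groups overlap, and without day 14 replicate 3, its lowest day 14 library, the difference was 0.81 with an adjusted exact permutation p of 0.0429, the only one of 11 alternatives in which it passed. In the 6 libraries under 40000000 counts it was 0.32 (exact permutation p = 0.333, with 0.0667 the smallest possible).

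Apolipoprotein E, the ligand by which particles bind their receptors, was the most abundant member. Apoe (chr7:19696244-19701310) took 0.655-0.876% of all counts of a library. It held 7514, 7611, 8657 and 8472 CPM at day 4 and 7120.4, 7102, 8367, 6785 and 7795 CPM at day 14. Day 14 replicates 3 and 5 lay within the day 4 range and the other 3 below it. Apoe averaged 8063 ± 585 (SD, n = 4) at day 4 and 7434 ± 638 (SD, n = 5) at day 14, with a difference that did not pass (log2 fold change -0.12 ± 0.09, SE, 95% interval -0.32 to 0.08, edgeR adjusted p = 0.355). In the 6 libraries under 40000000 counts the log2 fold change was 0.0003, and without day 4 replicate 3 it was -0.06.

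Apoc2, whose product is the cofactor that lipoprotein lipase needs to split triglycerides, showed the largest change of the set. Apoc2 (chr7:19671579-19677941) held 31.8, 26.1, 24.7 and 22.3 CPM at day 4 and 2.57, 2.19, 4.12, 3.0 and 2.75 CPM at day 14. The lowest day 4 library was over 5 times the highest day 14 library. Its level was 8.99-fold lower at day 14, from 26.2 ± 4.02 CPM at day 4 to 2.93 ± 0.727 CPM at day 14 (log2 fold change -3.17 ± 0.17, SE, 95% interval -3.54 to -2.80, edgeR adjusted p = 2.4e-07). Over 22 alternatives, the log2 fold change stayed between -3.32 and -3.02 and passed each time, and with the mean level of fibroblast markers as a covariate it was -3.02. A read-through gene annotated across Apoc4 and Apoc2 (Gm44805) has no row in the counts, so its reads and those of Apoc2 cannot be told apart.

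Apoc1, the inhibitor of lipoprotein lipase and of receptor uptake of particles, was near the detection limit. Apoc1 (chr7:19689480-19692659) had 20, 32, 27 and 47 counts at day 4 and 7, 13, 14, 7 and 3 counts at day 14, or 0.811, 1.17, 0.532 and 0.801 CPM and 0.141, 0.519, 0.582, 0.339 and 0.153 CPM. Day 14 replicate 3 exceeded day 4 replicate 3, so the groups overlap. The level was 2.41-fold lower at day 14 (log2 fold change -1.27 ± 0.45, SE, 95% interval -2.24 to -0.30, edgeR adjusted p = 0.0471). That call rests on few counts: it was lost in 13 of 21 alternatives, with an edgeR adjusted p of up to 0.484, that with fibroblast markers as a covariate. It was lost on leaving out day 4 replicate 1, 2 or 4 or day 14 replicate 1, 4 or 5 (edgeR adjusted p = 0.0737 to 0.111). Apoc4, the last gene of the cluster, held 0.265 ± 0.050 CPM at day 4 and 0.175 ± 0.102 CPM at day 14 and was not tested. It held no count in day 14 replicate 2, which allows up to 0.12 CPM (3 counts).

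Because both genes are read in the same library, a ratio needs no scaling between libraries. The log2 ratio of Apoc2 to Apoe counts was -8.27 ± 0.30 (SD, n = 4) at day 4 and -11.33 ± 0.27 (SD, n = 5) at day 14, a fall to an 8.32-fold lower ratio. Every day 14 library lay below every day 4 library (exact permutation test, two-sided, p = 0.00794, the smallest that 9 libraries can give; 0.0238 adjusted over 6 ratios). This order followed from Apoc2 alone, whose lowest day 4 library held 22.3 CPM and highest day 14 library 4.12 CPM. Apoe ranged only from 6785 to 8657 CPM, so this p-value adds no support beyond the test of Apoc2. Relative to Apoc1, Apoc2 fell by 1.82 on the log2 scale with no overlap (exact permutation p = 0.0159, 0.0317 adjusted). The ratio of Apoc1 to Apoe went from -13.28 ± 0.55 to -14.51 ± 0.89 and did not pass (exact permutation p = 0.0556, 0.0667 adjusted). So of the 3 genes that share 1 stretch of chromosome 7, Apoc2 moved apart from Apoe and Apoc1, and Apoc1 was not shown to move apart from Apoe.

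In all, 10 genes listed in the counts start within 100 kb of Apoe, and 8 of them were tested. Next to Apoe on its other side, Tomm40, the pore of the mitochondrial import machinery, was 1.51-fold lower at day 14, from 20.1 ± 3.41 CPM at day 4 to 13.4 ± 2.09 CPM at day 14 (log2 fold change -0.59 ± 0.14, edgeR adjusted p = 0.00781). Pvrl2, a nectin of cell contacts now named Nectin2, was 1.97-fold lower (edgeR adjusted p = 0.00199), and Clptm1 was 1.26-fold lower (edgeR adjusted p = 0.0161). Clptm1 lost the call without day 4 replicate 3 or 4 (edgeR adjusted p = 0.0550 and 0.0706), and with fibroblast markers as a covariate neither it nor Tomm40 nor Pvrl2 passed (edgeR adjusted p = 0.131, 0.104 and 0.119). Bcam, a laminin receptor, was 4.88-fold higher, from 2.98 ± 1.54 CPM at day 4 to 15.1 ± 2.05 CPM at day 14 (edgeR adjusted p = 7.94e-05), with no overlap. Relb, a subunit of the NF-kappaB family, held 58.7 ± 9.93 CPM at day 4 and 59.7 ± 6.49 CPM at day 14 and did not pass (edgeR adjusted p = 0.892), and Cblc, with 3 counts in all libraries together, was not tested. Of the 8 genes tested, 5 were lower, 1 was higher and 2 did not pass, beside 16.1% lower and 15.1% higher of all genes tested. The 5 include Apoc1, which passed the filter only through day 4 and lost its call in 13 of 21 alternatives. Whether this stretch differs from others was not tested. The largest of these changes was that of Apoc2.

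**Figure D2:**
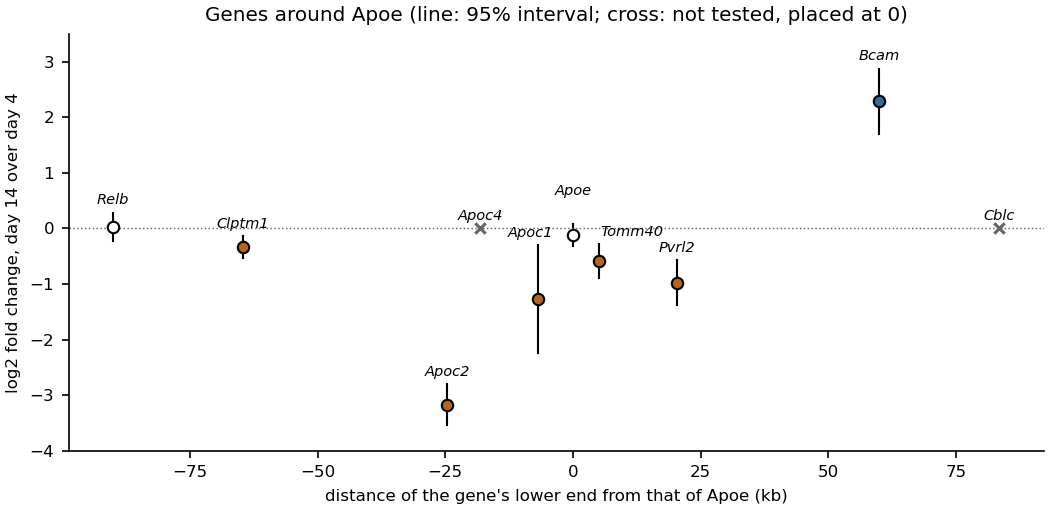
Log2 fold change (day 14 over day 4, y axis) of the 10 genes within 100 kb of Apoe, against the distance of their lower end from that of Apoe in kb (x axis). Lines are 95% intervals, orange points lower, blue points higher, white points did not pass, and crosses mark the 2 genes that were not tested and are placed at 0; Apoc2 stands lowest at -3.17 and Bcam highest at 2.29.

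Lipoprotein lipase splits the triglycerides of circulating particles and is a major secreted enzyme of lipid-loaded macrophages. Lpl (chr8:68880555-68906932) held 528, 597, 626 and 459 CPM at day 4 and 1323, 1524, 1099.8, 1491 and 1132 CPM at day 14. The lowest day 14 library was well above the highest day 4 library. Lpl was 2.38-fold higher at day 14, with 552 ± 74.8 (SD, n = 4) at day 4 and 1314 ± 197 (SD, n = 5) at day 14 (log2 fold change 1.25 ± 0.13, SE, 95% interval 0.97 to 1.53, edgeR adjusted p = 3.24e-05). Levels of adipocyte markers are given above, and their part in the level of Lpl was not tested. With fibroblast markers as a covariate the log2 fold change was 1.21, and over 22 alternatives it ranged from 1.19 to 1.34 and passed in each.

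The enzyme and its cofactor thus moved in opposite directions. The count ratio of Lpl to Apoc2 was 16.6, 22.8, 25.3 and 20.5 in the day 4 libraries and 513, 688, 266, 493 and 408 in the day 14 libraries. On the log2 scale it went from 4.40 ± 0.26 (SD, n = 4) to 8.82 ± 0.51 (SD, n = 5), a 21.4-fold higher ratio with no overlap (exact permutation test, two-sided, p = 0.00794, the smallest possible, and 0.0238 adjusted over 6 ratios). Lpl and Apoc2 had each separated by day in opposite directions, so their ratio had to separate too. Its p-value adds no support beyond the tests of both genes. Leaving out any 1 library kept the difference between 4.27 and 4.61. With fewer regroupings, the adjusted p was 0.0429 without day 14 replicate 3 and lay between 0.0536 and 0.0571 without any 1 of the other 8 libraries, since the smallest unadjusted p is then 0.0179 or 0.0286. Apoc2 to Apoe gave the same adjusted p values. For Apoc2 to Apoc1 the adjusted p was 0.0429 without day 14 replicate 3 and lay between 0.0571 and 0.0714 without any of the others.

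**Figure D3:**
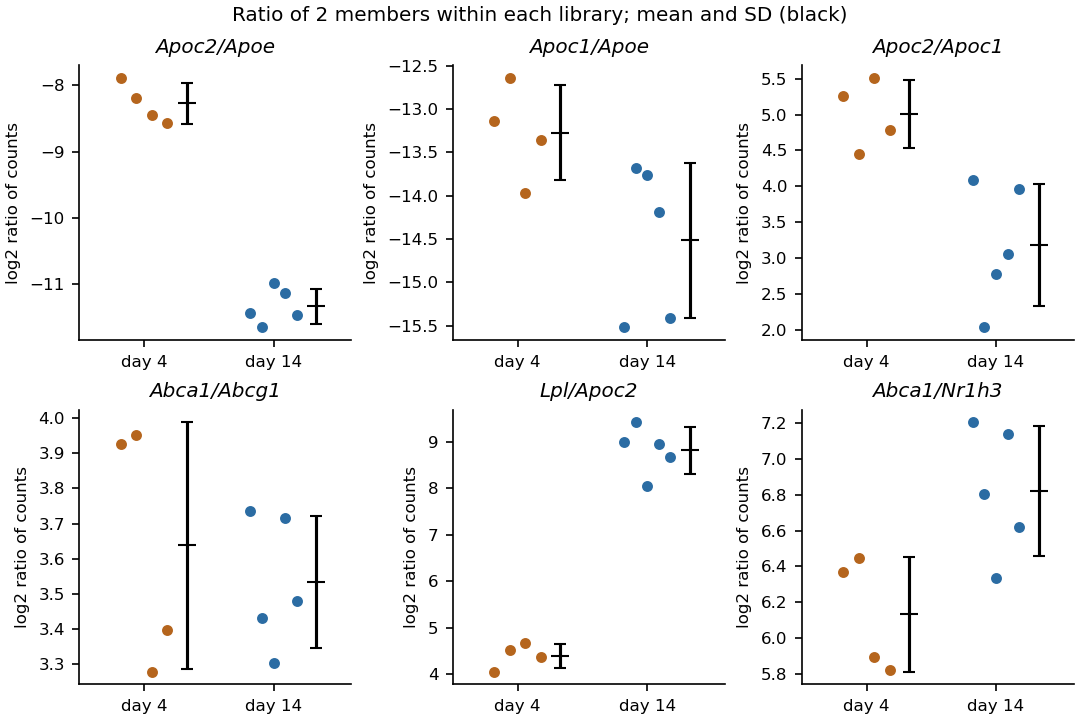
Log2 ratio of the counts of 2 members within each library (points; orange, day 4; blue, day 14), with mean and SD in black, for the 6 ratios compared; the y axes differ and do not start at 0. The points of Apoc2/Apoe, Apoc2/Apoc1 and Lpl/Apoc2 separate by day, and those of Apoc1/Apoe, Abca1/Abcg1 and Abca1/Nr1h3 overlap.

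Other genes of lipase handling and of lipid breakdown inside the cell were called about as often as all genes. Of 13 listed 12 were tested, with 1 higher and 3 lower, beside 31.2% called of all genes tested, and a median log2 fold change of -0.22. Angptl4, an inhibitor of lipoprotein lipase, was 2.74-fold lower at day 14, from 39.5 ± 8.88 CPM at day 4 to 14.4 ± 1.88 CPM at day 14 (log2 fold change -1.45 ± 0.15, edgeR adjusted p = 2.57e-05). Mgll, which frees the last fatty acid from monoglycerides, was 2.37-fold higher, from 3.0 ± 0.290 CPM at day 4 to 7.11 ± 1.85 CPM at day 14 (edgeR adjusted p = 0.000744). Sort1, a sorting receptor, was 1.20-fold lower and Pnpla2, the first lipase of lipid droplets, 1.26-fold lower (edgeR adjusted p = 0.0144 and 0.00933). Sort1 lost the call without day 4 replicate 2 (edgeR adjusted p = 0.0503), and without day 14 replicate 3 the list held 5 lower genes. With fibroblast markers as a covariate, Angptl4 alone was called lower. Lipa, the acid lipase of the lysosome and the most abundant of the list, held 644 ± 74.3 CPM at day 4 and 689 ± 90.9 CPM at day 14 and did not pass (edgeR adjusted p = 0.547). Lmf1, which lipoprotein lipase needs to fold, did not pass either (log2 fold change -0.13, edgeR adjusted p = 0.402), and Gpihbp1, which holds the enzyme on capillaries, was under 1 CPM in every library.

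Pltp encodes the phospholipid transfer protein, which remodels HDL. Pltp (chr2:164839518-164857708) held 1187, 1037, 1417 and 1504 CPM at day 4 and 1233, 1351, 1323, 1236 and 1335 CPM at day 14. The 5 day 14 libraries all lay within the range of the 4 day 4 libraries, whose coefficient of variation was 16.6% beside 4.37% at day 14. The means were 1286 ± 214 (SD, n = 4) at day 4 and 1296 ± 56.6 (SD, n = 5) at day 14 (log2 fold change 0.01 ± 0.11, SE, 95% interval -0.23 to 0.25, edgeR adjusted p = 0.954). As for Abca1, the day 4 values split by depth, here with replicates 1 and 2 low. Nr1h3, Abcg1 and Apoe split in the same direction as Pltp, and Apoc1 and Apoc2 in that of Abca1. Lpl and Mylip did not split this way. The log2 fold change was 0.25 in the 6 libraries under 40000000 counts and -0.16 with fibroblast markers as a covariate, and neither passed (edgeR adjusted p = 0.202 and 0.609). Pltp shares 1515 bases with the annotated span of Ctsa, and since the library kit does not mark strand, reads there cannot be told apart.

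MYLIP sends lipoprotein receptors to the lysosome, so that a sterol-loaded cell takes up fewer particles. Mylip (chr13:45389742-45411940) held 103, 111, 112 and 101 CPM at day 4 and 195, 177, 176, 153 and 150.2 CPM at day 14, with all 5 day 14 libraries above all 4 day 4 libraries. The level was 1.59-fold higher at day 14, with 107 ± 5.44 (SD, n = 4) at day 4 and 170.2 ± 18.7 (SD, n = 5) at day 14 (log2 fold change 0.67 ± 0.09, SE, 95% interval 0.47 to 0.87, edgeR adjusted p = 0.000209). It passed in all 22 alternatives, with log2 fold changes from 0.62 to 0.74.

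**Figure D4:**
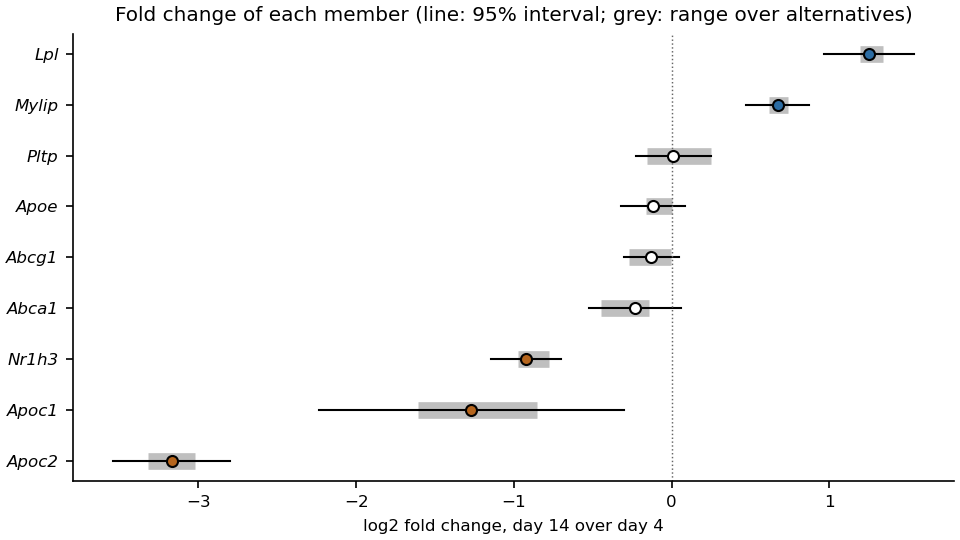
Log2 fold change of each member (day 14 over day 4, x axis) with its 95% interval (black line) and the range over the alternative analyses (grey bar); blue points were called higher, orange points lower and white points did not pass. Apoc2 lies at -3.17 and Lpl at 1.25, and the intervals of Pltp, Apoe, Abcg1 and Abca1 include 0.

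Of 6 genes for receptors of apolipoprotein E and of lipoproteins described here, each was lower or did not pass. All 6 were tested, with 4 lower and 0 higher (also 0 with an unadjusted p under 0.05, and 0 by DESeq2 and limma-voom). Among all genes tested, 16.1% were lower and 15.1% higher. The median log2 fold change of the 6 was -0.69. Lrp1, the large receptor that takes up particles rich in apolipoprotein E, was 1.87-fold lower, from 2024 ± 216 CPM at day 4 to 1085 ± 179 CPM at day 14 (log2 fold change -0.90 ± 0.13, edgeR adjusted p = 0.000251). Lsr and Lrp8, also receptors of such particles, were 1.64-fold and 1.58-fold lower (edgeR adjusted p = 0.00244 and 0.00118). Scarb1, a receptor of HDL, was 1.34-fold lower (edgeR adjusted p = 0.0261), but lost the call without day 4 replicate 3 or 4 or day 14 replicate 1, 2 or 4 (edgeR adjusted p = 0.0618 to 0.0939).

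Vldlr (log2 fold change -0.43, edgeR adjusted p = 0.154) and Sorl1 (log2 fold change -0.74 in 8 libraries, edgeR adjusted p = 0.330) did not pass. With fibroblast markers as a covariate, 1 of these 6 genes was called lower, Lrp1 (log2 fold change -0.86). Over all genes that covariate, which cannot be fully separated from the day, left 532 called lower, in place of 2156.

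Calls among other targets of the receptor went both ways, also among the fatty acid desaturases. Of 17 listed, 13 were tested, with 3 higher and 7 lower, beside 31.2% called of all genes tested. Their median log2 fold change was -0.32. Srebf1, the transcription factor through which the receptor drives fatty acid synthesis, was 1.42-fold lower, from 47.3 ± 7.64 CPM at day 4 to 33.5 ± 5.86 CPM at day 14 (edgeR adjusted p = 0.0165), with overlapping groups. It lost the call without day 4 replicate 4 (edgeR adjusted p = 0.0612). The stearoyl-CoA desaturases parted: Scd1 was 2.17-fold higher, from 13.7 ± 4.62 CPM at day 4 to 29.6 ± 8.21 CPM at day 14 (edgeR adjusted p = 0.00524), and Scd2 was 2.13-fold lower, from 89.6 ± 9.87 CPM at day 4 to 42.0 ± 10.1 CPM at day 14 (edgeR adjusted p = 0.000250). Fasn, the fatty acid synthase, held 34.8 ± 2.67 CPM at day 4 and 42.5 ± 9.35 CPM at day 14 and did not pass (edgeR adjusted p = 0.142), nor did Acaca (edgeR adjusted p = 0.896).

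Among the enzymes that lengthen and desaturate polyunsaturated fatty acids, Elovl5 was 1.58-fold higher in the 8 libraries that hold it (edgeR adjusted p = 0.00139) and Fads1 1.32-fold higher (edgeR adjusted p = 0.00442). Fads2 was 2.86-fold lower, from 1.70 ± 0.830 CPM at day 4 to 0.598 ± 0.269 CPM at day 14 (edgeR adjusted p = 0.0137), and passed the filter through day 4. Lpcat3, which puts such fatty acids into phospholipids, was 1.27-fold lower (edgeR adjusted p = 0.00656). Cd5l, a secreted macrophage protein that protects from apoptosis, was 3-fold lower, from 44.6 ± 13.5 CPM at day 4 to 14.9 ± 2.77 CPM at day 14 (edgeR adjusted p = 0.000157), the largest fold among the 13. Mertk, the receptor for engulfing dead cells, was 1.30-fold lower and Smpdl3a, a secreted phosphodiesterase, 1.25-fold lower (edgeR adjusted p = 0.0171 and 0.0149). Without day 4 replicate 3 or day 14 replicate 5, neither passed, and Mertk also lost the call without day 4 replicate 4 (edgeR adjusted p of at most 0.0858 over these fits). Arl4c, a small GTPase and the most abundant of the list, held 569 ± 79.0 CPM at day 4 and 658 ± 135 CPM at day 14 and did not pass (edgeR adjusted p = 0.284). With fibroblast markers as a covariate, 0 genes of the list were called higher and 2 lower, Scd2 and Cd5l. In the 6 libraries under 40000000 counts, the calls of these 2 and of Fads1 held.

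The other apolipoproteins, Apoc4 of the Apoe cluster among them, were scarce. Of 16 listed 14 had a row in the counts and 4 were tested, with 2 higher and 0 lower, beside 31.2% called of all genes tested. Also 0 were lower with an unadjusted p under 0.05, and without day 4 replicate 4, 1 was lower. The median log2 fold change was 0.40. Apol7c, of the apolipoprotein L family of proteins inside cells, was 4.77-fold higher, from 1.22 ± 0.392 CPM at day 4 to 5.92 ± 0.709 CPM at day 14 (edgeR adjusted p = 2.35e-05). Clu, the secreted chaperone clusterin, was 1.71-fold higher, from 1.92 ± 0.677 CPM at day 4 to 3.34 ± 0.923 CPM at day 14 (edgeR adjusted p = 0.0478). Clu lost the call in 7 of the 9 fits that left out 1 library, all but those without day 4 replicate 4 or day 14 replicate 2 (edgeR adjusted p = 0.0644 to 0.103). Apod, a lipocalin and the most abundant of the list, held 14.0 ± 2.03 CPM at day 4 and 14.4 ± 2.89 CPM at day 14 (edgeR adjusted p = 0.902). Summed levels of dendritic cell markers were higher at day 14, as given above, and their part in the levels of Apol7c was not tested.

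Genes that make the receptor's ligands or bring cholesterol to the membrane also parted. Of 15 listed 13 were tested, with 3 higher and 4 lower, beside 31.2% called of all genes tested. Their median log2 fold change was 0.03. Ch25h, which makes 25-hydroxycholesterol, was 2.73-fold higher, from 1.74 ± 0.243 CPM at day 4 to 4.73 ± 0.717 CPM at day 14 (log2 fold change 1.45 ± 0.18, edgeR adjusted p = 0.000126). Cyp27a1, which makes 27-hydroxycholesterol, was 1.48-fold higher, from 51.8 ± 8.65 CPM at day 4 to 76.9 ± 9.79 CPM at day 14 (edgeR adjusted p = 0.00492). Cyp7b1, which breaks both oxysterols down, was 5.12-fold lower, from 4.23 ± 2.44 CPM at day 4 to 0.804 ± 0.384 CPM at day 14 (edgeR adjusted p = 0.000991). So Ch25h and Cyp27a1 were higher and Cyp7b1 lower at day 14, while Nr1h3 was lower. Cyp46a1 and Sult2b1, other listed enzymes that act on sterols, were not tested. The day 4 mean of Cyp7b1 leans on replicate 2 (7.88 CPM, beside 2.91 to 3.20 in the other day 4 libraries). Cyp7b1 passed the filter on low counts through day 4, and its call and that of Cyp27a1 were lost with fibroblast markers as a covariate (edgeR adjusted p = 0.151 and 0.237).

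Stard3, which tethers late endosomes to the endoplasmic reticulum for cholesterol transfer, was 1.61-fold lower (edgeR adjusted p = 0.000235). Gramd1a, a carrier of cholesterol from the plasma membrane, was 1.31-fold higher (edgeR adjusted p = 0.0435). Npc1 and Npc2, which pass cholesterol out of the lysosome, were 1.25-fold and 1.18-fold lower (edgeR adjusted p = 0.0368 and 0.0238), and Npc2 was the most abundant of the list, with 973 ± 23.3 CPM at day 4 and 824 ± 25.8 CPM at day 14. These last 3 calls were near the threshold: on leaving out 1 library, that of Gramd1a was lost in 7 of 9 fits, that of Npc1 in 8 and that of Npc2 in 6 (edgeR adjusted p = 0.0520 to 0.105). The list held 2 lower genes, in place of 4, without day 4 replicate 2, 3 or 4 or day 14 replicate 1, 2 or 5.

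**Figure D5:**
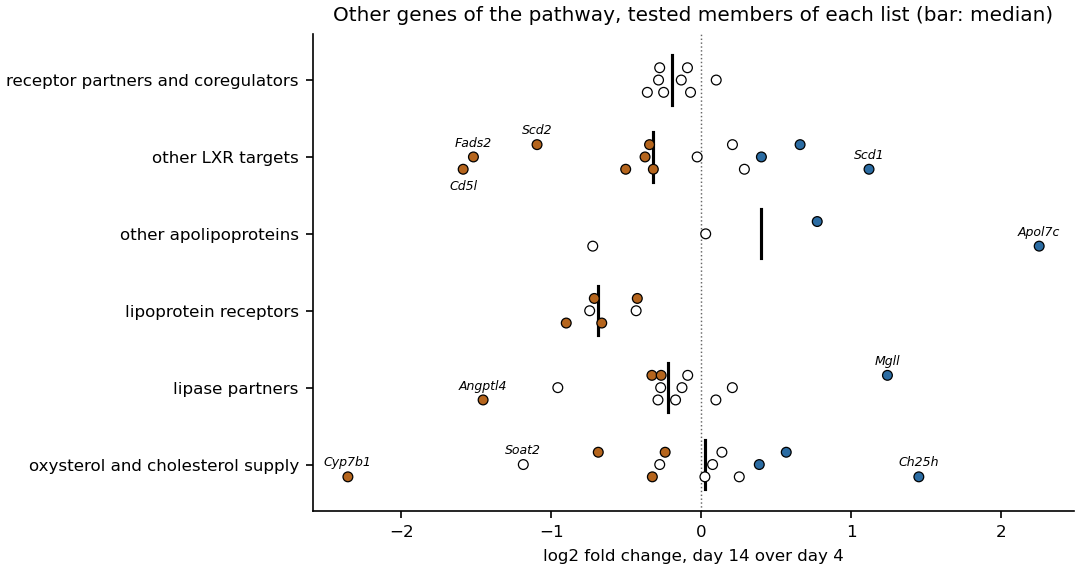
Log2 fold change (day 14 over day 4, x axis) of each tested gene described here from the 6 lists of related genes (rows), with the median of each list as a black bar; blue points were called higher, orange points lower and white points did not pass, and genes beyond 1 in either direction are named. The medians run from -0.69 for the 6 lipoprotein receptors shown to 0.40 for the other apolipoproteins.

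The genes most like 4 of the members were sought among 9031 genes with a mean of at least 5 CPM, by the root mean square difference of centred log2 CPM over the 9 libraries. Nearest to Nr1h3 were Lrp1 (0.0852), Tmem184b (0.0916) and Tspan4 (0.0919), beside a median of 0.490 over all genes compared. Lrp1, the nearest, is the receptor described above. Nearest to Apoc2 were Mmp9 (0.292), a gelatinase, Adamts14 (0.294), a procollagen protease, and Ctsk (0.319), a collagen-degrading cathepsin, beside a median of 1.58. Mmp9 went from 478 ± 145 CPM to 57.0 ± 23.0 CPM and Ctsk from 445 ± 120.4 CPM to 65.4 ± 9.28 CPM. Nearest to Lpl were Diap3 (0.134), Mpp6 (0.135) and Trim36 (0.140), beside a median of 0.677. Nearest to Apoe, whose libraries differ little, were Creb3 (0.0398), Dhrs7 (0.0420) and Mrpl37 (0.0432), beside a median of 0.228. Likeness here describes 9 libraries that share depth and cell makeup, and no more.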

How the data were processed

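RNA from macrophages sorted from skin wounds was sequenced as paired ends after preparation with the Illumina TruSeq RNA kit v2, per the labels' protocols. CASAVA 1.8, HISAT2 2.1.0, SAMtools 1.4, Partek 6.6, DESeq2 and the build mm10 are named in the submitters' processing notes, with no role or annotation given. The authors deposited estimated counts for 18303 genes, of which a mean of 17.2% per library are not whole; they were rounded. The authors also deposited normalized values for 13673 genes, a signal equal to counts divided by 1 factor per library for nearly all values, used only as an alternative. Columns were matched to samples by the number in each sample's title. Library totals in the order of the replicates: day 4, 26479011, 27381276, 50162700, 57809914; day 14, 50445159, 25073554, 23713900, 21396799, 17982630; limits set from 3 counts cover counting error only.

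Positions came from RefSeq on GRCm38.p6, the assembly that mm10 names (17103 genes matched by symbol, 1098 by an older name, 102 not matched), and transcript lengths from GENCODE M21. Differences were tested with edgeR 4.0.16 in R 4.3.3 (TMM scaling, filterByExpr, robust glmQLFit and glmQLFTest, two-sided), with Benjamini-Hochberg adjustment over 13364 genes and a threshold of 0.05. Genes beyond the point where day 14 replicate 5 ends were fitted in the other 8 libraries and adjusted together with the rest. Standard errors came from the F statistic. Ratios within a library used 0.5 added to each count. On simulated counts for 13340 genes, 79% of 100 genes changed by 1 on the log2 scale and 100% of 100 changed by 2 were recovered, with 5.29% false among calls. The simulation gave every gene the same dispersion and changed far fewer genes than were called in the data. It held no differences in cell makeup, so these rates need not hold for the calls above.

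The members and lists were chosen with earlier results of these data known. The text names all members, the called and the most abundant genes of each list, genes within 100 kb of Apoe, and the 3 genes most like Nr1h3, Apoe, Apoc2 and Lpl. Nr1h2, Rxra, Rxrb, Vldlr, Sorl1, Fasn, Acaca, Lmf1 and Gpihbp1, named with values though not called, were chosen after their values were seen. Some genes of the lipoprotein receptor list are not reported here and were left out of its counts and median. For genes there were 22 alternatives: scaling by RLE, by the upper quartile or by total counts, DESeq2 1.42.0, limma-voom (limma 3.58.1), testing with no filter or with a minimum of 5 CPM in 4 libraries, all genes in all 9 libraries, non-robust dispersion, log10 library size or mean fibroblast marker level as a covariate, the 6 libraries under 40000000 counts, the normalized values with limma, and leaving out each of 9 libraries. Ratios were also computed with 5 counts added.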

Additional observations from a re-analysis of the deposited data

Results flagged for a closer look

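Among the groups of 4 or 5 libraries of the named genes, 90 were searched for a library that stands apart by Dixon's criterion, and 5 were found; chance alone gives about 1 in 20. At day 4, Lpcat3 held 52.4 CPM in replicate 4, beside 45.3 to 45.5 in the other 3 libraries. Pnpla2 held 74.4 CPM in day 4 replicate 2, beside 83.5 to 84.3. For Ch25h, day 4 replicate 4 was low at 1.38 CPM, beside 1.82 to 1.89. Cyp7b1 held 7.88 CPM in day 4 replicate 2, beside 2.91 to 3.20, so its day 4 mean leans on that library. At day 14, Arl4c held 897 CPM in replicate 4, beside 576 to 620.1. None of the 9 members had such a library.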

How the results depend on the processing

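No paired analysis was possible because the labels give the libraries no shared replicate numbers. Nr1h3, Apoc2, Lpl and Mylip passed in all 22 alternatives and Abca1, Abcg1, Apoe and Pltp in none. With fibroblast markers as a covariate, genes called higher were 659 and lower 532; other targets of the receptor held 0 higher and 2 lower, lipoprotein receptors 1 lower, lipase partners 1 lower, the oxysterol and cholesterol list 1 higher and 1 lower, and other apolipoproteins 1 higher. In the 6 shallower libraries, 1078 and 1007 genes were called, with 1 and 2 for other targets, 2 lower for lipoprotein receptors, 1 lower for lipase partners and for other apolipoproteins, and 2 lower for the oxysterol list, with fewer libraries. There the log2 ratios changed by -3.27 (Apoc2/Apoe), -1.90 (Apoc2/Apoc1) and 4.49 (Lpl/Apoc2), where no exact permutation p under 0.0667 is possible. Upper-quartile scaling and no filter gave 2 lower in the oxysterol list. Among calls, 58.0% were higher with upper-quartile scaling (2410 against 1745) and 48.4% with TMM. Other apolipoproteins held 1 higher with total counts, limma-voom, the 5 CPM filter and all genes in all 9 libraries, and 1 lower without a filter and with the normalized values. DESeq2 and limma-voom called 1 receptor partner lower. The cause was not tested, apart from fewer samples or genes.

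Leaving out 1 library at a time gave 1532 to 2313 genes higher and 1565 to 2548 lower, 0 to 3 receptor partners lower, 1 to 2 other apolipoproteins higher and 0 to 1 lower, 2 to 5 lipase partners lower, 2 to 5 oxysterol genes lower, and log2 ratio changes of -3.16 to -2.93 (Apoc2/Apoe), -2.04 to -1.53 (Apoc2/Apoc1), 4.27 to 4.61 (Lpl/Apoc2) and 0.59 to 0.81 (Abca1/Nr1h3). Uncalled changes crossed 0 for Pltp (-0.16 with the fibroblast covariate; -0.054 to 0.114 on leaving out 1 library, below 0 without day 4 replicate 1, day 4 replicate 2 or day 14 replicate 2), Apod (-0.011 with limma-voom, -0.12 with library size; -0.052 to 0.122, below 0 without day 4 replicate 3, day 14 replicate 3 or day 14 replicate 5), Relb (-0.047 with library size, -0.0035 in the shallower libraries; -0.034 to 0.124, below 0 without day 4 replicate 3 or day 14 replicate 3), Apoe (0.00029) and Lipa (-0.013), both in the shallower libraries. Of 36 genes called among the 45 followed, 13 lost no call. Depth limits Apoc1 most, with 3 to 47 counts a library.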
